A study of Mus musculus with 4 samples.

Results

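The 10 type 2 effector genes described here are Il4, Il5, Il13, Il9, Lif, Calca, Tph1, Arg1, Pla2g7 and Ccl1. They were matched by gene ID and are 10 of the 31950 gene IDs listed in both gene expression libraries. The list was chosen with earlier results of these data known. In barcodes that passed the filters, 9 of the 10 had a UMI (a unique molecular identifier, which counts an mRNA molecule once) in both libraries, and the exception was Il9. Single-cell 5′ gene expression was measured in small intestinal lamina propria (SILP) cells of WT mice and of A20ZF7 mice, all 12 weeks old, after negative selection for T cells and innate lymphoid cells (ILCs). A20ZF7 mice carry a germline knock-in mutation of zinc finger 7 of A20 (Tnfaip3), the motif that binds linear (M1) ubiquitin chains, so every cell type of these mice carried it. Each genotype was 1 library made from 2 pooled mice. With 1 library per genotype no test between genotypes was possible, and each 95% interval below covers counting error alone and not the spread between mice. The libraries were also counted on gene lists that differed, with 1746 gene IDs in WT alone and 335 in A20ZF7 alone. A difference between the libraries therefore cannot be told apart from a difference between 2 pools of mice, 2 library preparations or 2 gene lists.

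Type 2 immunity is the arm of immune defence directed at worms and allergens, and it also takes part in tissue repair. Group 2 ILCs (ILC2s), which are innate lymphocytes without an antigen receptor, and Th2 cells make IL-4, IL-5, IL-13 and IL-9 under the transcription factor GATA3. In the gut, epithelial tuft cells release IL-25, ILC2s answer with IL-13, and IL-13 in turn drives the expansion of goblet and tuft cells. ILC2s also take up nerve-derived signals such as neuromedin U, and make the neuropeptide CGRP, whose gene is Calca. Mast cells and basophils are further sources of IL-4.

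Il4, Il13 and Il5 lie in 1 locus, on chromosome 11 of build GRCm38. Il4 occupies chr11:53602982-53618669 on the minus strand, Il13 chr11:53631324-53634702 on the minus strand and Il5 chr11:53720794-53725106 on the plus strand. The gap from Il4 to Il13 is 12.7 kb, Rad50 lies between Il13 and Il5, and the stretch from Il4 to Il5 spans 122.1 kb. The 250 bases before the RefSeq start of each of these genes (build GRCm38.p6) are shown because the 3 cytokines differed between the libraries in the same direction. Capitals mark matches to a GATA motif (AGATAA or its variant AGATAG, and TGATAA or its variant TGATAG) or to a STAT6-type motif (TTCNNNNGAA), both searched on both strands.
Il4, chr11:53618666-53618915, minus strand: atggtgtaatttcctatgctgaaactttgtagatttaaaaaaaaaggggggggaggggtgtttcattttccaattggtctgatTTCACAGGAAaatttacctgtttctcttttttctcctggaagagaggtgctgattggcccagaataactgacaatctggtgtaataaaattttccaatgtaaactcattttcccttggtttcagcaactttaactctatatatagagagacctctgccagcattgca
Il13, chr11:53634703-53634952, minus strand: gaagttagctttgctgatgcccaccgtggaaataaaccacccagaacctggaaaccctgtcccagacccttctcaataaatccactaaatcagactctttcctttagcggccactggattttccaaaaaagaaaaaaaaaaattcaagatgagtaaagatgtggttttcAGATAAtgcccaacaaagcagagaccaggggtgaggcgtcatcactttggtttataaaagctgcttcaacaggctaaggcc
Il5, chr11:53720544-53720793, plus strand: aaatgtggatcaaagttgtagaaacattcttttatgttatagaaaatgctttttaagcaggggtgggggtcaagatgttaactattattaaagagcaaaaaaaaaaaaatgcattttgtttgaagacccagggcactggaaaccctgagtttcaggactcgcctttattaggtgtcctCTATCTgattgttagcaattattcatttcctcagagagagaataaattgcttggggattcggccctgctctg
The Il13 window held a GATA match 81 bases before the start, and the Il5 window held one 72 bases before the start, on the opposite strand. The Il4 window held no GATA match and 1 STAT6-type match 167 bases before the start. RefSeq promoters were present for 9 of the 10 genes, Arg1 being the exception. GATA matches were also found for Calca, Pla2g7, Ccl1 and 1 of the 2 starts of Tph1, and a STAT6-type match for Il9, while the Lif window held neither. For comparison, 26.5% of all 32851 promoters held a GATA match and 5.85% held a STAT6-type match, so a match describes the letters of a window and not a bound site.

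The remaining genes are spread over the genome (GRCm38). Il9 is at chr13:56479277-56482246, Lif at chr11:4257557-4272514, Calca at chr7:114631478-114636357 and Tph1 at chr7:46644641-46672537. Arg1 is at chr10:24915221-24927484, Pla2g7 at chr17:43568098-43612201 and Ccl1 at chr11:82176657-82305690. The Ccl1 entry is 129034 bases long, and the RefSeq start used for its GATA match lies far inside it, not at its 5′ end. The annotation places an antisense RNA gene over Il5 and another over Pla2g7, and whether the counting used strand is not given in the sources used here. Calca is spliced into calcitonin and CGRP mRNAs, which gene counts cannot tell apart.

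After filtering, 20081 WT and 36876 A20ZF7 barcodes remained, with a median of 885 and 952 UMIs. Barcodes were clustered without the 10 genes, and clusters were named by lists of marker genes. ILC2-like clusters held 2204 WT barcodes (10.98% of those kept, 2157645 UMIs) and 1771 A20ZF7 barcodes (4.803%, 1790353 UMIs), at median depths of 838 and 865 UMIs. All 9 ILC2 markers were detected in them in both libraries, with Gata3 at 1021 CPM (UMIs of a gene per 1000000 UMIs of the class) in WT and 881 CPM in A20ZF7, against 64.3 and 86.5 CPM in stromal clusters (fibroblast-like and smooth muscle-like). All 9 were also detected in T-like and stromal barcodes, at lower summed levels. The same list named the class, so it is no separate support for the name. In the class, 187 WT and 130 A20ZF7 barcodes held no ILC2 marker UMI. The WT mice were told apart by their antibody hashtags 7 and 8, which gave ILC2-like sets of 922 and 531 barcodes, beside 751 with no hashtag call. The A20ZF7 antibody matrix was identical to that of WT and was not used, so the A20ZF7 mice could not be separated. In all, 1053 kept barcode sequences were found in both libraries, and without them the A20ZF7 to WT ratio of summed Il4, Il5 and Il13 was 0.443 in ILC2-like and 0.529 in T-like barcodes.

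Free RNA was present in both libraries, and a measure of it is given beside many of the levels, though not all. A UMI of Cd3e, Cd3d, Cd3g or Trac, which define T cells, was found in 14.6% of WT and 43.8% of A20ZF7 stromal barcodes. In ILC2-like barcodes it was found in 22.3% and 46.4%. Gzma, a cytotoxic granule gene, was at 1683 CPM in ILC2-like barcodes of WT and 6726 CPM in those of A20ZF7. It was at 1419 and 2176 CPM in T-like barcodes and at 192 and 1067 CPM in stromal barcodes. Its ILC2-like level thus lay above both of these classes in each library, and how much of it was free RNA was not tested. The T marker list summed to 584 and 1303 CPM in ILC2-like barcodes, the ILC1 or NK list to 1762 and 6803 CPM, and the macrophage list to 17.6 and 43.6 CPM with Cd14 at 0. Gzma made up nearly all of the ILC1 or NK list. Of its other genes, Eomes and Prf1 were higher and Klrb1c, Klre1, Klrk1 and Tbx21 lower in A20ZF7. Whether these differences take part in the values below was not tested, except where a value without such barcodes is given.

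**Figure D1:**
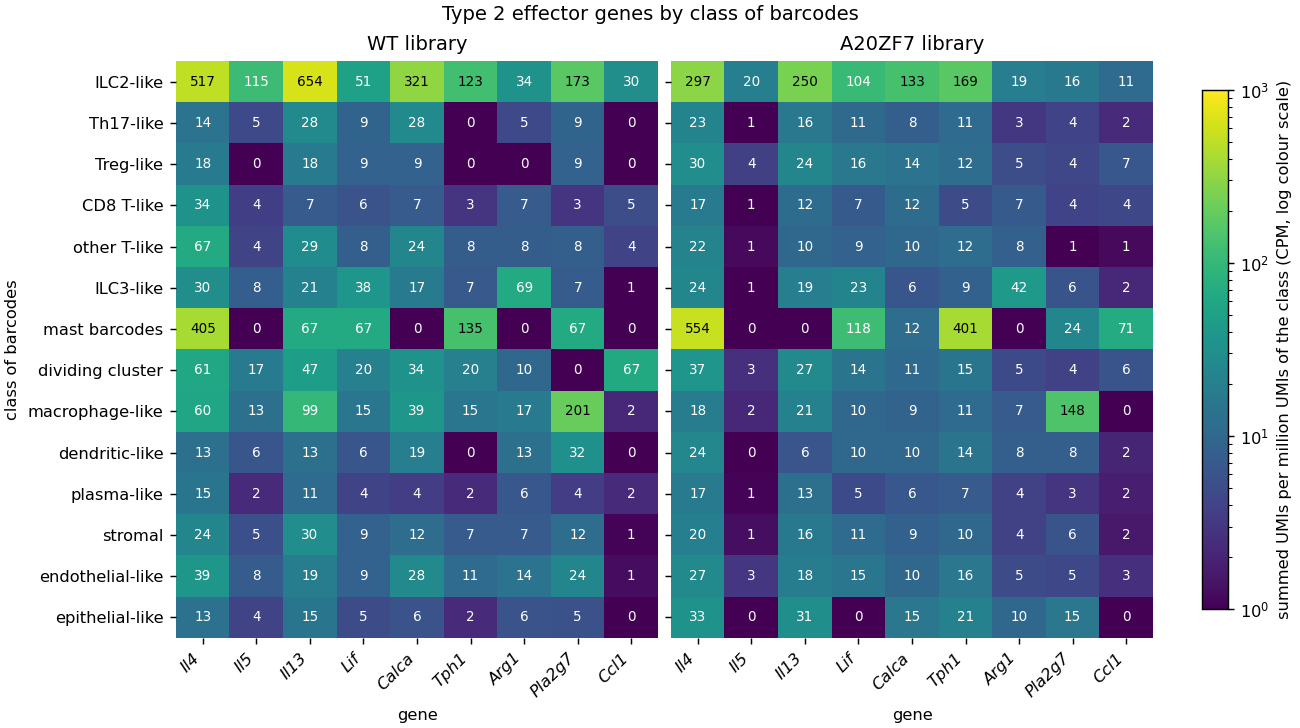
Summed CPM of 9 of the genes (columns, Il9 left out) in each class of barcodes (rows), with the WT library on the left, the A20ZF7 library on the right and a log colour scale. Il13 in ILC2-like barcodes was at 654 CPM in WT and 250 CPM in A20ZF7, Pla2g7 stands out in macrophage-like barcodes (201 and 148 CPM), and the mast row rests on 8 and 64 barcodes.

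The level of the type 2 cytokines Il4, Il5 and Il13 was far higher in ILC2-like than in T-like or stromal barcodes, and in ILC2-like barcodes it was lower in A20ZF7 than in WT. Summed over the 3 genes, the level was 1287 CPM (1239 to 1335) in WT and 567 CPM (533 to 603) in A20ZF7, a ratio of A20ZF7 to WT of 0.441 (0.410 to 0.474). The lower level was not particular to ILC2-like barcodes. The ratio was 0.240 (0.173 to 0.334) in macrophage-like, 0.532 (0.376 to 0.774) in dividing and 0.637 (0.568 to 0.713) in stromal barcodes. It was 0.744 (0.566 to 0.977) in ILC3-like and 0.732 (0.517 to 1.05) in endothelial-like ones. ILC2-like barcodes held 68.5% (67.1 to 69.9) of all UMIs of the 3 genes in WT and 36.2% (34.4 to 38.0) in A20ZF7. These held parts depend on the definition of the class. With marker UMIs in place of clusters they were 18.8% and 11.35%, and with the stromal level taken off as free RNA they were 94.9% and 78.5%. The share of ILC2-like barcodes among those kept was also lower in A20ZF7, so the held part combines a lower level with fewer barcodes, and how many cells were recovered from the tissue was not measured.

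Il13, whose product acts on the epithelium and on smooth muscle, was counted at 1412 UMIs in WT and 448 in A20ZF7 ILC2-like barcodes. Its level was 580 CPM in the hashtag 7 mouse, 625 CPM in the hashtag 8 mouse and 793 CPM in WT barcodes without a call, against 250 CPM (228 to 275) in A20ZF7. All 3 WT sets lay above A20ZF7, and the interval of the lowest of them (532 to 631) did not overlap that of A20ZF7. The ratio was 0.382 (0.343 to 0.426). Of the ILC2-like barcodes, 33.1% in WT and 16.7% in A20ZF7 held an Il13 UMI, and in 22.2% and 10.1% once each barcode was thinned to 500 UMIs. In stromal barcodes, which should lack the gene, these shares were 1.95% and 1.41%, or 0.894% and 0.533% thinned. In barcodes of 10 to 100 UMIs Il13 was at 44.8 CPM in WT and 13.2 CPM in A20ZF7. Its ratio was 0.209 (0.132 to 0.329) in macrophage-like and 0.545 (0.461 to 0.644) in stromal barcodes. In T-like and ILC3-like ones it was 0.767 (0.571 to 1.04) and 0.921 (0.591 to 1.44).

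Il5, the growth and survival factor of eosinophils, showed the lowest ratio of the 3 cytokines. Its level was 117, 110 and 119 CPM in the hashtag 7, hashtag 8 and uncalled WT sets, which overlapped one another. In A20ZF7 it was 19.6 CPM (13.6 to 27.2), from 35 UMIs, a ratio of 0.169 (0.115 to 0.242). The ratio was 0.278 with a minimum of 1000 UMIs per barcode and 0.103 with marker UMIs in place of clusters. The 35 UMIs came from 34 barcodes, 1.92% of the A20ZF7 class, against 9.76% of the WT class. Il5 was also lower in A20ZF7 outside ILC2-like barcodes, at 1.31 CPM against 5.37 CPM in stromal barcodes. In barcodes of 10 to 100 UMIs, which stand for free RNA, it was at 16.9 CPM in WT and 0.827 CPM (1 UMI) in A20ZF7.

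Il4, which promotes Th2 differentiation and IgE switching, differed less. It was at 484, 467 and 615 CPM in the hashtag 7, hashtag 8 and uncalled WT sets and at 297 CPM (272 to 324) in A20ZF7. The ratio was 0.575 (0.518 to 0.638), so its interval did not reach that of Il13. An Il4 UMI was present in 31.9% of WT and 22.6% of A20ZF7 ILC2-like barcodes (21.1% and 13.4% thinned), against 2.18% and 1.998% of stromal barcodes. Il9, a growth factor of mast cells and ILC2s, was all but undetected. It had 1 UMI in WT ILC2-like barcodes, 2 UMIs in all WT barcodes before filtering and 0 in A20ZF7, where 0 UMIs, taken to allow up to 3, allow a level of up to 1.68 CPM in ILC2-like barcodes. No ratio can be given for Il9.

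Lif, a cytokine of the IL-6 family that signals through Lifr and Il6st, was higher in A20ZF7. It stood at 56.7, 58.3 and 36.9 CPM in the hashtag 7, hashtag 8 and uncalled WT sets and at 104 CPM (89.5 to 120) in A20ZF7, above each WT set. The ratio was 2.02 (1.59 to 2.58). Of the ILC2-like barcodes, 4.08% in WT and 8.02% in A20ZF7 held a Lif UMI, or 2.54% and 4.8% thinned, against 0.918% and 1.29% of stromal barcodes (0.393% and 0.496% thinned). The direction was not shared by ILC3-like barcodes. Lif was at 37.9 CPM there in WT and 22.7 CPM in A20ZF7, a ratio of 0.599 (0.414 to 0.863). The Lif ratio was 1.41 in T-like, 1.28 in stromal and 1.72 in endothelial-like barcodes. In macrophage-like and dividing ones it was 0.668 and 0.706. The intervals of these other classes all spanned no change. In barcodes of 10 to 100 UMIs Lif was at 8.44 CPM in WT and 12.4 CPM in A20ZF7, with intervals that overlapped.

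**Figure D2:**
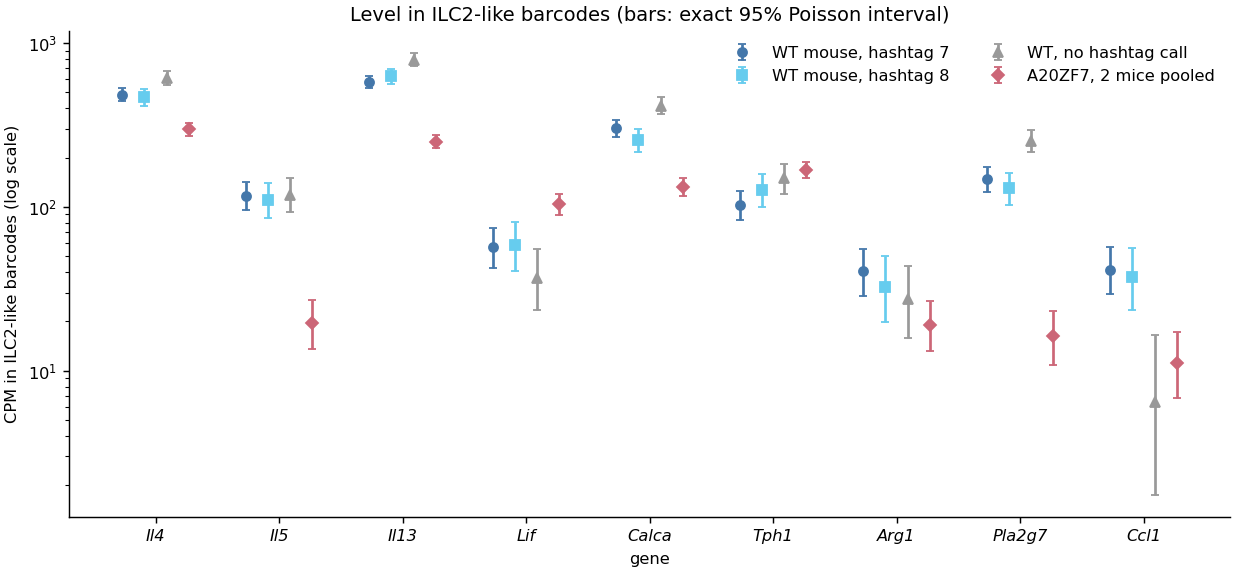
Level of each gene (CPM, log axis) in ILC2-like barcodes of the WT mouse with hashtag 7, the WT mouse with hashtag 8, WT barcodes without a call and the 2 pooled A20ZF7 mice, with exact Poisson 95% intervals as bars. Pla2g7 spans 130 to 254 CPM over the WT sets and is at 16.2 CPM in A20ZF7, whereas the points of Lif and Tph1 lie higher in A20ZF7 than in every WT set.

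Of the products that act on nerves, vessels and smooth muscle, Calca was lower and Tph1 higher in A20ZF7. Calca, which encodes the vasodilator neuropeptide CGRP, was at 302, 254 and 416 CPM in the hashtag 7, hashtag 8 and uncalled WT sets. In A20ZF7 it was at 133 CPM (117 to 151), a ratio of 0.414 (0.356 to 0.480), and all WT sets lay above it. The lower Calca level was not particular to ILC2-like barcodes. In barcodes of 10 to 100 UMIs Calca was at 22.7 CPM in WT and 6.62 CPM in A20ZF7. Its ratio was 0.231 in macrophage-like, 0.314 in dividing, 0.364 in endothelial-like and 0.379 in ILC3-like barcodes. In T-like and stromal barcodes it was 0.591 and 0.724. Tph1, the rate-limiting enzyme of serotonin synthesis outside the nervous system, was at 102.5, 126 and 149 CPM in the same WT sets and at 169 CPM (150 to 189) in A20ZF7. The Tph1 ratio was 1.37 (1.16 to 1.63), yet the intervals of the hashtag 8 set (99.9 to 158) and of the uncalled set (120.5 to 183) overlapped that of A20ZF7. In barcodes of 10 to 100 UMIs Tph1 was at 17.4 CPM in WT and 28.1 CPM in A20ZF7, also higher in the latter. Ddc, the next enzyme of serotonin synthesis, had 9 UMIs in WT and 0 in A20ZF7 ILC2-like barcodes, which allows up to 1.68 CPM.

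The enzymes Pla2g7 and Arg1 were both lower in A20ZF7 ILC2-like barcodes, Pla2g7 by far the more. Pla2g7 encodes platelet-activating factor acetylhydrolase, which inactivates that lipid mediator. It was at 147, 130 and 254 CPM in the hashtag 7, hashtag 8 and uncalled WT sets and at 16.2 CPM (10.9 to 23.3) in A20ZF7, from 373 and 29 UMIs. The ratio of 0.0937 (0.0619 to 0.137) was the lowest of the 9 genes for which a ratio was computed. The A20ZF7 level lay above the 6.06 CPM (4.94 to 7.36) of stromal barcodes and near the 22.3 CPM of barcodes with 10 to 100 UMIs. With classes defined by marker UMIs in place of clusters the ratio was 0.152. Arg1, which breaks down arginine, was at 40.3, 32.4 and 27.3 CPM in the WT sets and at 19.0 CPM (13.2 to 26.5) in A20ZF7. Its ratio was 0.554 (0.358 to 0.842), but the intervals of the hashtag 8 set (19.8 to 50.04) and of the uncalled set (15.9 to 43.7) overlapped that of A20ZF7. With free RNA taken off the ratio was 0.296.

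Ccl1, the chemokine ligand of Ccr8, rested on few barcodes. Its 65 WT UMIs in ILC2-like clusters came from 25 barcodes, with up to 13 UMIs in a single barcode, and its 20 A20ZF7 UMIs came from 14 barcodes. The ratio was 0.371 (0.213 to 0.620). Both hashtag mice were above A20ZF7, at 41.4 and 37.3 CPM against 11.2 CPM (6.82 to 17.3). WT barcodes without a call, at 6.42 CPM (1.75 to 16.4), were not, so the direction was not held by all WT sets, and without the hashtag 7 mouse the ratio was 0.513. Ccl1 was not particular to ILC2-like barcodes, where the whole WT class was at 30.1 CPM (23.3 to 38.4). In the dividing cluster of 160 WT and 2268 A20ZF7 barcodes it was at 67.3 CPM (41.1 to 104) and 6.07 CPM (3.85 to 9.11). These came from 20 and 23 UMIs, a ratio of 0.0902 (0.0474 to 0.173). The intervals of these ratios count molecules and are too narrow when a barcode holds many of them.

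Counted by size, 5 of the 9 genes with at least 20 UMIs in ILC2-like barcodes were 2-fold or more lower in A20ZF7 (Il5, Il13, Calca, Pla2g7 and Ccl1), 1 was 2-fold or more higher (Lif) and 3 lay between (Il4, Arg1 and Tph1). Among all 9640 genes with as many UMIs, 4.71% were 2-fold or more lower and 4.67% higher. The median ratio was 0.414 over the 9 genes and 0.977 over all 9640. Because the genes were chosen with earlier results of these data known, these comparisons are descriptions. Lif exceeded the 2-fold line by so little that it fell short of it under 10 of 16 other settings.

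Fewer ILC2-like barcodes of A20ZF7 held a UMI of any of the 10 genes. At least 1 of them was found in 70.8% (68.8 to 72.7) of WT and 53.4% (51.1 to 55.8) of A20ZF7 barcodes, and at least 2 in 35.9% and 17.8%. Thinned to 500 UMIs per barcode the shares were 55.4% and 35.1% for at least 1 gene and 19.6% and 7.85% for at least 2. Stromal barcodes held at least 1 in 6.42% of WT and 6.53% of A20ZF7 cases, with median depths of 1071 and 1072 UMIs. At least 2 were found in 2.03% (1.74 to 2.35) and 1.30% (1.11 to 1.51) of stromal barcodes, or 0.453% and 0.188% thinned. The stromal shares thus had overlapping intervals for at least 1 gene but were lower in A20ZF7 for at least 2, as in ILC2-like barcodes.

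The genes were detected together to different degrees within WT ILC2-like barcodes thinned to 500 UMIs, a description in which the barcodes share a library. Il5 was found in 8.57% (6.25 to 11.4) of barcodes with an Il13 UMI and in 4.84% (3.88 to 5.97) of those without, and these intervals did not overlap. Pla2g7 was found in 10.6% (8.03 to 13.7) and 6.65% (5.52 to 7.94) of the same barcodes, and in 14.05% (8.40 to 21.5) of those with a Tph1 UMI against 7.15% (6.08 to 8.35) of those without. Pla2g7 was thus found more often beside Il13 and beside Tph1 than in barcodes without them. Lif went the other way, at 1.22% (0.451 to 2.65) of barcodes with an Il13 UMI and 2.92% (2.17 to 3.83) of those without, intervals that overlapped. Of the 56 WT barcodes with a Lif UMI after thinning, 0 held a Pla2g7 UMI, an exact interval that reaches 6.38%, against 7.73% of those without Lif. In A20ZF7, Tph1 was found in 15.3% (8.40 to 24.7) of Lif barcodes and in 7.00% (5.83 to 8.32) of the rest.

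**Figure D3:**
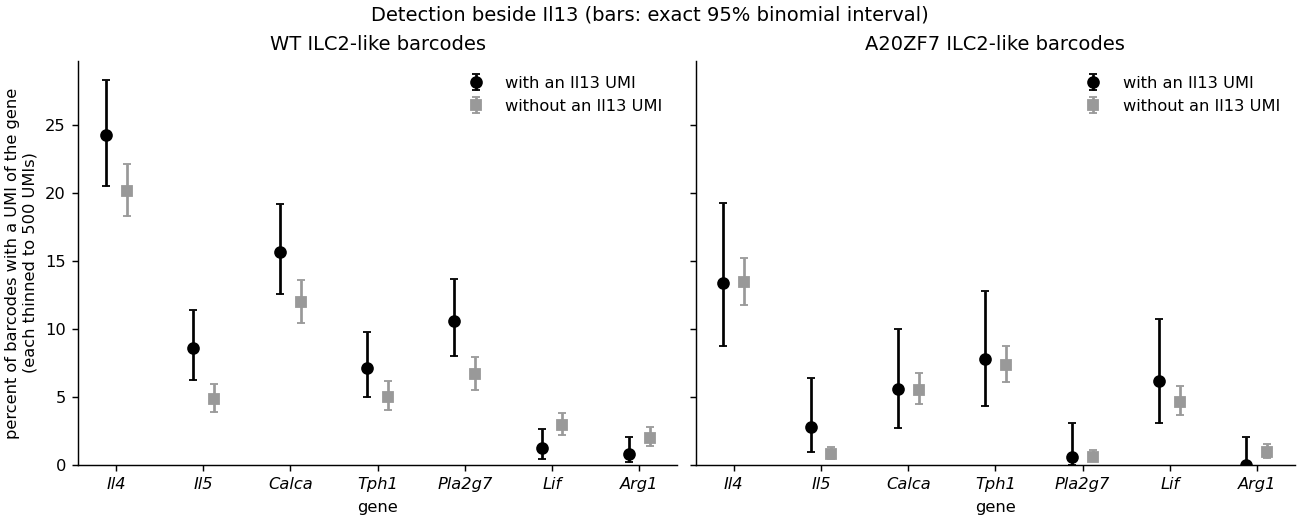
Percent of ILC2-like barcodes with a UMI of each of 7 genes, among barcodes with an Il13 UMI (black circles) and without (grey squares), each barcode thinned to 500 UMIs and with exact binomial 95% intervals as bars. In WT (left) Il5 lies at 8.57% with Il13 and 4.84% without, and Lif at 1.22% and 2.92%, while in A20ZF7 (right) all pairs of intervals overlap.

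T-like barcodes carried far less of the 3 cytokines than ILC2-like barcodes. Their summed level was 72.2 CPM (63.4 to 81.8) in 4515 WT barcodes and 38.7 CPM (34.8 to 42.8) in 10667 A20ZF7 barcodes, a ratio of 0.536 (0.455 to 0.632). Stromal barcodes were at 58.6 CPM (54.1 to 63.5) and 37.3 CPM (34.5 to 40.4). The A20ZF7 T-like level therefore did not differ from the stromal level beyond counting error. The WT level was higher than its stromal counterpart. Their intervals met only at the ends, at 63.4 and 63.5 CPM, which does not show that the levels were alike. With the stromal level of the 3 cytokines taken off each library as free RNA, the T-like ratio was 0.0981, which restates that comparison. Over all T-like barcodes of A20ZF7, expression of the 3 cytokines above the stromal level was thus not detectable at this depth. Of the subsets, Treg-like barcodes of A20ZF7 were above it, at 57.7 CPM (45.7 to 71.9), and those of WT were at 35.1 CPM (9.57 to 89.9) from 4 UMIs. T-like barcodes under no named subset were at 100 CPM (85.7 to 116) in WT, above the WT stromal interval. In A20ZF7 they were at 33.0 CPM (24.9 to 42.9). In WT barcodes of 10 to 100 UMIs, Il13 was at 44.8 CPM (35.8 to 55.5) and Il5 at 16.9 CPM (11.6 to 23.8). WT T-like barcodes lay below both, at 19.7 CPM (15.2 to 25.0) and 3.81 CPM (2.03 to 6.52). Stromal barcodes with Il13 often held ILC2 genes, as given below. Whether the stromal level is free RNA alone was not tested.

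Of the 3 cytokines, only Il4 was above the stromal level in WT T-like barcodes, at 48.7 CPM (41.6 to 56.7) against 23.7 CPM (20.8 to 26.9). In A20ZF7 these values were 22.3 CPM (19.4 to 25.5) and 19.9 CPM (17.8 to 22.2), whose intervals overlapped. In WT barcodes of 10 to 100 UMIs Il4 was at 38.5 CPM (30.2 to 48.4). That interval overlapped the WT T-like one, so Il4 was not above this second measure of free RNA beyond counting error. The WT level was highest in T-like clusters that fell under no named subset, where Il4 was at 67.4 CPM (55.6 to 80.9) in WT and 21.8 CPM (15.4 to 30.1) in A20ZF7. Of the 129 WT T-like barcodes with an Il4 UMI, 21.7% held Gata3 against 8.35% of the rest, and 64.3% held a T cell receptor or CD3 gene against 76.5%. Zbtb16, the transcription factor PLZF of innate-like T cells, was in 14.7% (9.11 to 22.0) of them and in 3.53% (3.01 to 4.12) of the rest, at median depths of 670 and 673 UMIs. In A20ZF7 Zbtb16 was in 0.552% of the 181 Il4 barcodes and 1.55% of the rest. In WT stromal barcodes Zbtb16 was in 32.2% of those with an Il4 UMI and 29.3% of the rest, at median depths of 1749 and 1063 UMIs. Those stromal intervals overlapped (25.5 to 39.5 and 28.3 to 30.3). In WT ILC2-like barcodes Zbtb16 was in 1.42% of those with an Il4 UMI and 2.53% of the rest, with intervals that overlapped. Zbtb16 itself was thus not particular to T-like barcodes. Its higher share beside Il4 was seen in WT T-like barcodes and not in WT stromal or ILC2-like ones. Among WT T-like barcodes, Zbtb16 was in 1.96% of the 51 with an Il13 UMI and in 3.88% of the rest. Il17rb was in 3.10% of the WT T-like barcodes with Il4 against 0.456% of the rest, and Cd4 in 5.43% against 8.66%. The comparison genes were chosen with earlier results known. Across the 10 genes, 0 of 9 were 2-fold or more higher and 2 (Il4 and Il5) were 2-fold or more lower in A20ZF7 T-like barcodes, against 6.13% and 3.79% of 11886 genes.

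Stromal barcodes that held Il13 were deeper than the rest and held ILC2 genes. In WT, the 164 stromal barcodes with an Il13 UMI had a median of 1695 UMIs against 1064 for the rest, and Gata3 was in 52.4% of them against 4.51%. In A20ZF7 the medians were 1959 and 1066 UMIs, and Gata3 was in 51.6% of 188 barcodes against 8.05% of the rest. Il17rb, the receptor of IL-25, was in 49.4% and 30.3% of these barcodes. Doublets were removed only where a WT barcode held both hashtags, and their part in these values was not tested.

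**Figure D4:**
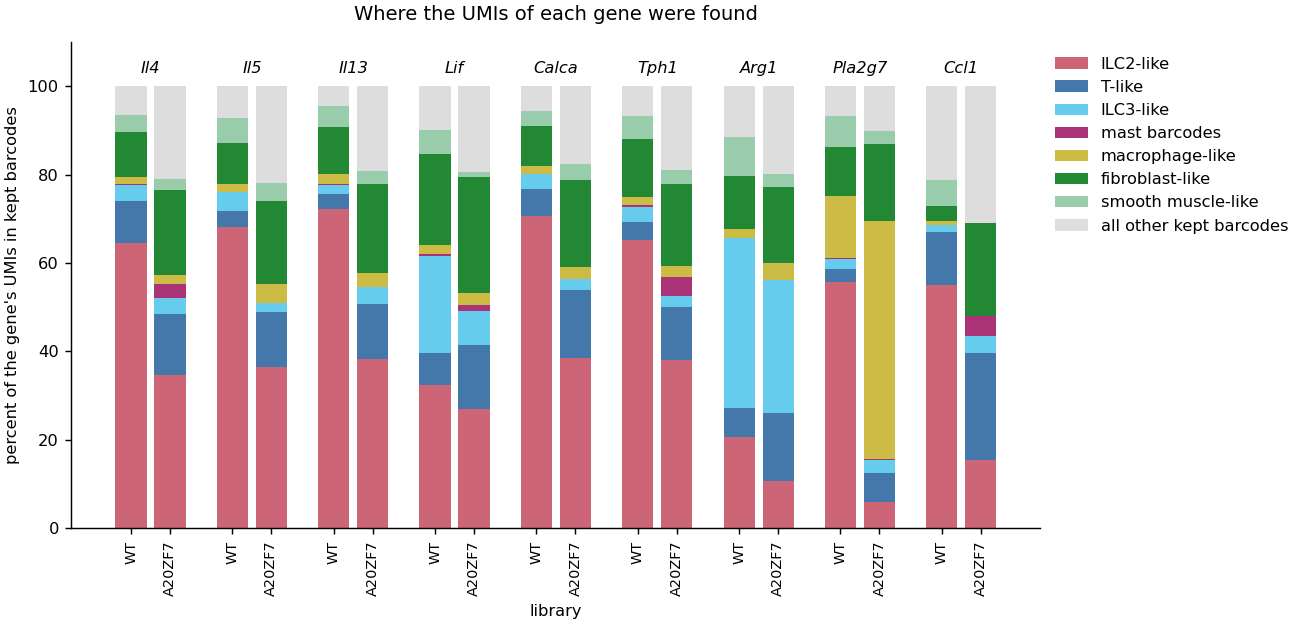
Percent of each gene's UMIs in kept barcodes that fell in each class, as stacked bars for the WT and A20ZF7 libraries. ILC2-like barcodes hold 55.6% of Pla2g7 UMIs in WT and 5.84% in A20ZF7, macrophage-like barcodes 14.0% and 53.7%, and the red ILC2-like segment is the smaller in A20ZF7 for every gene.

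Other classes carried single genes of the set. Pla2g7 in macrophage-like barcodes was at 201 CPM (163 to 246) in WT and 148 CPM (131 to 167) in A20ZF7, a ratio of 0.738 (0.581 to 0.943). Its ratio there was thus far closer to 1 than the 0.0937 of ILC2-like barcodes, and the intervals of the ratios did not overlap. The lower level was not particular to ILC2-like barcodes. The Pla2g7 ratio was 0.190 (0.0756 to 0.440) in endothelial-like and 0.509 (0.388 to 0.668) in stromal barcodes, and 0.802 (0.359 to 1.78) in ILC3-like ones. Macrophage-like barcodes held 14.0% of all Pla2g7 UMIs in WT and 53.7% in A20ZF7, and were 1.98% and 3.46% of the barcodes kept. Arg1, often used as a marker of alternatively activated macrophages, was instead highest in ILC3-like barcodes, at 68.8 CPM (57.8 to 81.3) in WT and 41.6 CPM (33.7 to 50.7) in A20ZF7, a ratio of 0.604 (0.461 to 0.789). In macrophage-like barcodes Arg1 was at 17.1 CPM (7.40 to 33.8) and 7.23 CPM (3.85 to 12.4). ILC3-like barcodes held 38.3% of Arg1 UMIs in WT and 30.03% in A20ZF7.

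Barcodes with at least 4 of 10 mast cell genes numbered 8 in WT and 64 in A20ZF7, a limit set after the data were seen. They held 6 Il4 UMIs in WT (405 CPM, 149 to 881) and 47 in A20ZF7 (554 CPM, 407 to 737). Tph1 had 2 UMIs in WT and 34 in A20ZF7 mast barcodes, the latter at 401 CPM (278 to 560). Lif had 10 UMIs (118 CPM, 56.5 to 217) and Ccl1 6 UMIs (70.7 CPM, 26.0 to 154) in A20ZF7 mast barcodes. In A20ZF7 stromal barcodes these 2 genes were at 11.2 and 1.61 CPM. Calca had 1 UMI and Pla2g7 2 UMIs in A20ZF7 mast barcodes. Mast barcodes of A20ZF7 thus carried Il4, Tph1, Lif and Ccl1, while Il5, Il13, Il9 and Arg1 had 0 UMIs in them, which allows up to 35.4 CPM each. The A20ZF7 mast barcodes also held genes of other classes. In them the T list summed to 979 CPM, the fibroblast list to 2193 CPM and the ILC1 or NK list to 1816 CPM. In WT mast barcodes these lists were at 67.4, 67.4 and 0 CPM. The part of other cells in the Lif and Ccl1 counts was not tested. With 8 WT barcodes no difference between the genotypes was detectable. In ILC2-like barcodes, after barcodes with 4 or more mast genes had been set apart, Mcpt1 had 4 UMIs in WT and 3 in A20ZF7, Mcpt2 1 and 1 and Cpa3 0 and 4. Cma1, Tpsb2, Tpsab1 and Fcer1a were at 0 there in both libraries, but Tpsab1 was at 0 in mast barcodes too. The part of mast cell RNA in the Tph1 of ILC2-like barcodes was not tested. Kit, which ILCs also express, made up nearly all of the mast list there, at 272 of 280 CPM in WT and 198 of 205 CPM in A20ZF7.

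The wider type 2 pathway was described by 63 listed genes, of which 42 had at least 20 UMIs in ILC2-like barcodes. Of these, 2 were 2-fold or more higher in A20ZF7, 6 were 2-fold or more lower and 34 lay between, with a median ratio of 1.07. Over all 9640 genes 4.67% were higher and 4.71% lower, so the count of higher pathway genes was near the background. The 6 lower of 42 were a larger share than the background. The lists were chosen with earlier results of these data known, so both comparisons are descriptions. The transcription factor list held no gene past 2-fold among 14, with Gata3 at a ratio of 0.863 (0.808 to 0.921), Rora at 1.03, Irf4 at 0.696 and Stat5b at 1.81. Whether the levels of these factors take part in the lower Il5 and Il13 was not tested. Among receptors on type 2 lymphocytes 2 of 15 were 2-fold or more lower and 0 higher. Nmur1, the receptor of neuromedin U, was at 70.5 CPM in WT (59.95 and 87.5 CPM in the hashtag mice) and 16.8 CPM in A20ZF7, a ratio of 0.238 (0.155 to 0.354). Crlf2, the TSLP receptor chain, had a ratio of 0.498 (0.375 to 0.657). Il17rb, the IL-25 receptor, was at 744 CPM and 462 CPM, a ratio of 0.621, and Il1rl1, the IL-33 receptor, at 27.3 and 52.0 CPM, a ratio of 1.90. In stromal barcodes Nmur1 was at 5.46 and 3.15 CPM, Il17rb at 32.5 and 22.7 CPM and Il1rl1 at 3.61 and 14.4 CPM. Each of these 3 genes thus differed in the same direction there.

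Among other products tied to type 2 responses, 2 of 5 were higher and 2 lower by 2-fold or more. Areg, an epidermal growth factor receptor ligand active in tissue repair, was at 426 CPM in WT (445 and 407 CPM in the hashtag mice) and 1079 CPM in A20ZF7, a ratio of 2.54 (2.34 to 2.75). Il10, an anti-inflammatory cytokine, was at 13.0 CPM and 62.6 CPM, a ratio of 4.82 (3.16 to 7.58). Both were also higher outside ILC2-like barcodes, with Areg in fibroblast-like barcodes at 48.3 and 258 CPM and Il10 there at 7.81 and 44.4 CPM. Csf2, the cytokine GM-CSF, was at 168 and 64.8 CPM, a ratio of 0.385 (0.310 to 0.476), and Ccl11, an eosinophil chemoattractant, at 11.6 and 5.59 CPM. Upstream, Il25 and Nmu had 0 UMIs in ILC2-like barcodes, and of 3 genes with enough UMIs Alox5, an enzyme of leukotriene synthesis, was 2-fold or more lower, at 11.1 and 1.12 CPM (24 and 2 UMIs). The A20ZF7 ILC2-like profile was therefore not lower throughout.

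**Figure D5:**
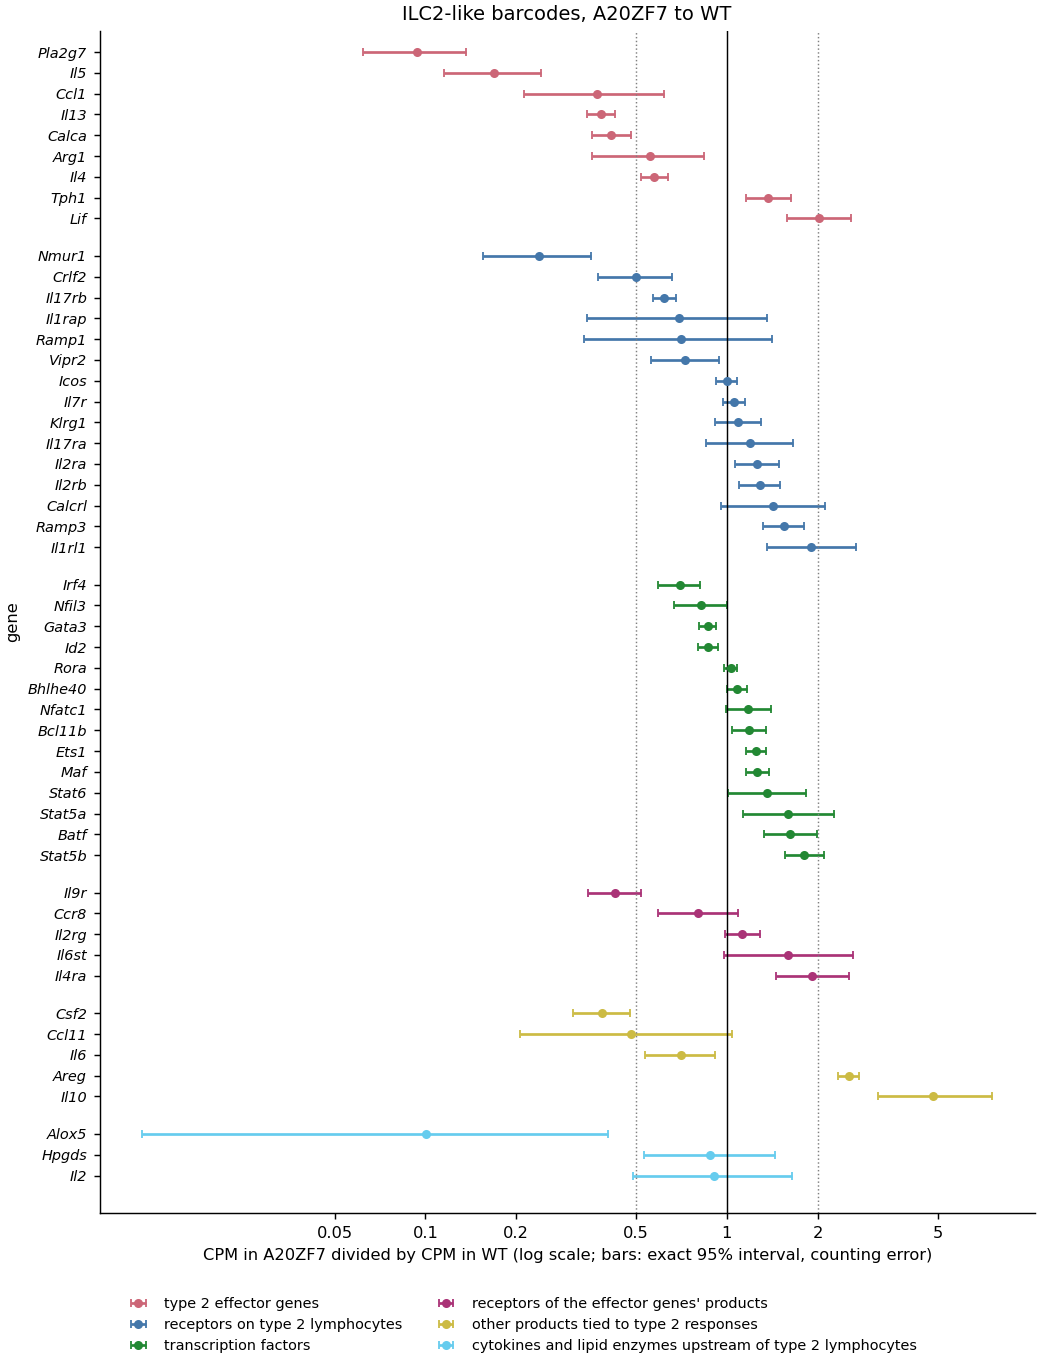
Ratio of A20ZF7 CPM to WT CPM in ILC2-like barcodes (log axis) with exact conditional 95% intervals, for the effector genes and 5 pathway lists, with dotted lines at 2-fold and genes under 20 UMIs left out. The effector genes run from 0.0937 (Pla2g7) to 2.02 (Lif), while all 14 transcription factors lie inside the 2-fold lines.

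Some receptors of the products were found in ILC2-like barcodes and others mainly elsewhere. Il9r was at 178 CPM in WT and 75.4 CPM in A20ZF7 ILC2-like barcodes, a ratio of 0.425 (0.347 to 0.518), against 9.68 and 12.05 CPM in T-like ones. Il5ra had 0 UMIs in ILC2-like barcodes of both libraries. Il13ra1 was at 0 UMIs in WT ILC2-like barcodes and at 47.5 CPM in epithelial-like barcodes. Calcrl, a chain of the CGRP receptor that does not form it alone, was at 338 CPM in WT endothelial-like barcodes. It was at 158 CPM in WT fibroblast-like and 23.2 CPM in WT ILC2-like ones. Ccr8, the receptor of Ccl1, was at 51.4 CPM in WT and 41.3 CPM in A20ZF7 ILC2-like barcodes, against 11.4 and 15.9 CPM in T-like ones. In T-like barcodes 44 of the 63 pathway genes had at least 20 UMIs, of which 6 (Il1rl1, Il17rb, Batf, Irf4, Areg and Il6) were 2-fold or more higher and 3 (Il2, Csf2 and Ddc) lower in A20ZF7, beside 6.13% and 3.79% of all 11886 genes.

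Across 27 profiles of a cell class in a library, each of at least 100 barcodes, the levels of Il4, Il13 and Calca were most alike, with a Pearson r of 0.958 for Il13 and Calca and 0.932 for Il4 and Il13. These profiles share libraries and free RNA, and r is given as a description. Among 4172 other genes, Il17rb and Il9r were the nearest to Il13 (0.942 and 0.917) and were also among the nearest 3 of Il4, Il5 and Calca. For Tph1 the nearest was Il17rb (0.910), followed by Ptpn13 and Hs3st1. Arg1 was nearest to Hs6st2 (0.915), Ccdc184 and Csf2, and Pla2g7 was nearest to Lgmn (0.837). Lif was nearest to Hilpda (0.795), Ero1l and Pde7b. Ccl1 was nearest to the Paneth cell defensins Defa30 (0.819), Defa23 and Defa3, whose near-identical copies share reads, and at its few UMIs this likeness is uncertain. Arg1, Pla2g7 and Ccl1 thus had patterns apart from the cytokines, with r of 0.433, 0.643 and 0.601 to Il13.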

How the data were processed

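Small intestinal lamina propria cells were profiled with a 10x 5′ kit. The authors deposited raw UMI counts per gene and barcode, stated to be aligned to mm10. Cell Ranger was 7.1 in the submitters' notes, 8.0.0 in the gene expression file headers and 7.1.0 for antibodies. The gene lists of the 2 libraries differed. WT held 35289432 UMIs over all its listed genes and 35171651 over the shared IDs. For A20ZF7 these were 54587004 and 52727058 UMIs. The part of this difference in the ratios was not tested. The members and lists were chosen with earlier results of these data known. Barcodes with at least 500 UMIs, 200 to 2500 genes and at most 15% mitochondrial UMIs were kept. WT barcodes with both hashtags (2006, HTODemux at 0.99) were removed and other doublets left in. Gene counts over the 31950 shared IDs were clustered in Seurat 5.3.0 (R 4.3.3) on 2000 variable genes without the 10 members, cell-cycle scores regressed, 30 principal components and resolution 0.8. Of 26 clusters, 23 were named by the best marker list at a mean log2 fold of at least 1.0 with at least 3 markers detected, limits set after the clusters were seen. Class names are therefore rebuilt. A dividing cluster, 1 below the limits and 1 led by pancreatic enzyme genes, which mark no class here, stayed unnamed (1.87% of WT and 10.6% of A20ZF7 barcodes, with 1.19% and 12.2% of Il4, Il5 and Il13 UMIs).

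UMIs were summed per class and library and given as CPM with exact Poisson intervals, ratios with exact conditional intervals and shares with exact Clopper-Pearson intervals (scipy 1.17.1). The interval and ratio code was checked on simulated data. A ratio was computed from 20 UMIs over both libraries, 0 UMIs allow up to 3, and likeness used log2(CPM + 20). Named genes were the 10 members, any gene of the pathway lists, the 3 genes most alike to each member (for Pla2g7 not all are reported here), and the 3 antibodies at each end. The control antibodies are given beside these. Antibody UMI counts (138 antibodies and 4 hashtags) were used for WT alone. Alternatives were other UMI minima, resolutions, class definitions, thinning, removal of free RNA (the profile of barcodes of 10 to 100 UMIs, scaled to the stromal level of Il4, Il5 and Il13) and leaving out a WT mouse.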

Additional observations from a re-analysis of the deposited data

Results flagged for a closer look

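Apart from the hashtags, which told the WT mice apart, the WT antibody counts entered no comparison above. WT ILC2-like barcodes with an Il13 UMI (730) were set beside those without (1474), and the 3 antibodies at each end of the ratio of their share of antibody UMIs are given as values. Higher with Il13 were CD11b at a ratio of 1.142, CD43 at 1.094 and PDL1 at 1.087. Lower with Il13 were CD38 at 0.8132, KLRG1 at 0.8517 and Sca1 at 0.8534. CD38 was at 0.803 in both hashtag mice, and KLRG1 at 0.837 and 0.845. CD11b was at 1.24 in the hashtag 7 mouse and 0.999 in the hashtag 8 mouse, so that ratio rested on 1 mouse. Median depth was 929.5 gene UMIs in barcodes with Il13 and 793 in those without. The control antibodies IgG1Ctrl, IgG2aCtrl and IgG2bCtrl of the panel had ratios of 1.029, 1.011 and 0.961. IgG2bCtrl was at 0.893 in the hashtag 8 mouse. No control sample was available for antibodies, and the antibodies were picked as the extremes of 138, so the ratios are descriptions.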

How the results depend on the processing

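Up to 16 alternative settings gave 241 values. No ratio changed direction, and 44 values moved, the intervals of ratios and parts and 1.5 times for counts being the limits. The summed ILC2-like ratio of 0.441 was 0.4998 with the members in the clustering, 0.3925 with marker UMIs in place of clusters and 0.4767 with WT barcodes that had a hashtag call alone. The T-like ratio of 0.536 was 0.4448, 0.4044, 0.3697, 0.4431 and 0.09808 with, in turn, members in the clustering, marker UMIs, removal of barcodes with 3 or more UMIs of another class's markers, thinning and removal of free RNA. The WT part of 68.5% was 58.86% at 1000 UMIs, 73.74% with members in the clustering, 18.76% by marker UMIs, 63.57% without mixed barcodes, 73.95% thinned, 94.91% without free RNA and 65.27% with hashtag calls alone. Leaving out the hashtag 7 mouse gave 72.20%. The A20ZF7 part of 36.2% was 22.86%, 46.47%, 11.35%, 29.60%, 46.63% and 78.54% under the first 6 of these. Lif fell below 2-fold, so that the count of higher members was 0 in place of 1, under 10 settings. Thinned, the shares with a member were 55.40% and 35.12%. Without the hashtag 7 mouse 4 members in place of 5 were 2-fold or more lower, Ccl1 being at 0.513. Il5 had a ratio of 0.278 at 1000 UMIs and 0.103 by marker UMIs, Arg1 0.296 without free RNA and Pla2g7 0.152 by marker UMIs. Ccl1 had a ratio of 0.826 at 1000 UMIs and 0.764 by marker UMIs, and Pla2g7 had no value without free RNA. The cause of these moves was not tested. The hashtag call, shared barcode and mast settings were chosen after seeing the data. No paired analysis was possible because each genotype was 1 pool and no mouse was paired between genotypes. Depth limits Il9, Ccl1 and Arg1 most, and the A20ZF7 mice could not be separated.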
